A study of Mus musculus with 6 samples.

Results

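Genomic imprinting is the silencing of 1 parental copy of a gene, and several imprinted genes carry miRNAs in their transcripts. The miRNAs described here lie at imprinted loci outside the large Dlk1-Dio3 cluster. They were the arms of miR-335 at Mest, of miR-296 and miR-298 at the Gnas locus, of miR-483 at Igf2 and of miR-675 at H19, taken by name from the table of known miRNAs. These were 9 mature arms of 1978 in the table, and all 9 were among the 619 that passed a filter on low counts.

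Small RNA was counted in c-kit+ cardiac progenitor cells, which carry the receptor tyrosine kinase c-kit and were sorted magnetically from enzyme-digested hearts of healthy male wild-type C57BL/6 mice aged 4 to 6 weeks. The comparison had 3 hypoxia libraries, from cells kept at low oxygen for 12 hours, and 3 control libraries labelled 0 hours. The sources used here do not give the level of oxygen. The treatment label reads hypoxia for both groups, so the groups follow the titles and times. The columns carry a prefix of 0 or 1 and a letter, and the prefix 0 was read as the 0 hours of the controls and the prefix 1 as hypoxia, on which every direction rests. If the controls were not themselves cultured for 12 hours, culture and hypoxia cannot be told apart. The labels call the libraries of a group biological replicates without naming separate animals or cultures, so the spread behind each p-value may be technical. The labels describe the RNA as exosomal in 1 place and the design text as cellular, and which it was is open in the sources used here.

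An imprinted gene is read mainly from the maternal or the paternal chromosome. In the mouse, Mest (an enzyme-like protein linked to growth), Igf2 (a fetal growth factor) and the antisense RNA of the Gnas cluster are read from the paternal copy. H19, a long non-coding RNA that shares a control region and enhancers with Igf2, is read from the maternal copy. A miRNA hairpin is cut into a 5p and a 3p arm, either of which can be loaded into the silencing complex, where bases 2 to 8, the seed, direct the choice of target mRNAs. Counts of mature miRNAs do not tell the parental copies apart, and the host transcripts were not measured.

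The mature sequences are shown because arms of 1 hairpin differ in their seeds and because base composition separates the Mest arms from the others. The prefix mmu marks the mouse and is left out below. The sequences come from RefSeq (GRCm38.p6), are written 5′ to 3′, and have the seed in capitals.
mmu-miR-335-5p: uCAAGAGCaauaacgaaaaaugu
mmu-miR-335-3p: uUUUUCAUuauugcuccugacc
mmu-miR-296-5p: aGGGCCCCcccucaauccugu
mmu-miR-296-3p: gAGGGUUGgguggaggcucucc
mmu-miR-298-5p: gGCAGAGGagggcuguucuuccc
mmu-miR-483-5p: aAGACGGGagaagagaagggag
mmu-miR-483-3p: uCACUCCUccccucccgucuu
mmu-miR-675-5p: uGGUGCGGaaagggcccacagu
mmu-miR-675-3p: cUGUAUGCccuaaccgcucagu

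All 9 seeds differed from each other. None of the other miRNAs of the table that matched a RefSeq mature sequence (1679 of 1978 matched, the 9 included) had the seed of any of the 9. The Mest arms were poor in G and C, with 30.4% in miR-335-5p and 36.4% in miR-335-3p. The other 7 arms had from 54.5% to 68.2%, and miR-296-5p holds a run of 7 consecutive C. In no case did an arm and another miRNA have counts that differed by at most 1% throughout the 6 libraries, a mark of shared reads.

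The genes of the 5 hairpins lie on 3 chromosomes of GRCm38. Mir335 is at chr6:30741299-30741396 on the plus strand, within Mest and in an intron of all 7 GENCODE M21 transcripts of Mest that span it. Mir296 at chr2:174267047-174267125 and Mir298 at chr2:174267504-174267585 are 378 bases apart on the minus strand. Neither lies inside an annotated gene of the Gnas cluster, and the nearest end of Nespas, the antisense RNA on the same strand, was 13652 bases from Mir298. Mir675 is at chr7:142577064-142577147 on the minus strand, within H19 and inside an exon of 3 of the 4 H19 transcripts that span it. Mir483, at chr7:142654924-142654996 on the same strand, lies within Igf2 and in an intron of all 7 transcripts that span it, and 77776 bases separate it from Mir675. The hairpins of miR-335 and miR-483 are shown with both arms in capitals, since the balance of their arms is described below.
miR-335 hairpin: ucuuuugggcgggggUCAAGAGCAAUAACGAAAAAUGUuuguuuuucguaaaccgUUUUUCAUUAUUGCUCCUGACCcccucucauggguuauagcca
miR-483 hairpin: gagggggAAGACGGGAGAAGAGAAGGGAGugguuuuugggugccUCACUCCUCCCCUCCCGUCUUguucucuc

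Levels are given in CPM, which are read counts scaled to a common library size. Totals of known miRNA counts ran from 12285970 to 16975987 per library, and the 9 arms together held from 0.381% to 0.601% of them. In the shallowest library, a miRNA with a count of 0 could still be present at up to 0.244 CPM (3 counts of the total). Such limits and the intervals below cover counting error only. Endothelial miR-126a-3p was by far the highest of the 24 cell type markers measured, at 190220 to 228492 CPM in hypoxia and 217406 to 242519 CPM in control. The summed markers of cardiomyocytes (102 to 173 CPM in hypoxia, 76.4 to 171 CPM in control), of blood cells (12.3 to 30.7 CPM in hypoxia, 14.7 to 27.4 CPM in control) and of epithelium (5.58 to 7.18 CPM in hypoxia, 4.29 to 9.04 CPM in control) were low in both groups. Those of fibroblasts and smooth muscle were high, at 25247 to 47131 CPM in hypoxia and 24647 to 54680 CPM in control, most of it miR-143-3p. Expression of c-kit itself, an mRNA, was not analysed here. The skeletal muscle marker stood at 89.0 to 131 CPM in hypoxia and 76.3 to 114 CPM in control. The liver marker stood at 30.6 to 66.6 CPM in hypoxia and 32.5 to 93.1 CPM in control. The summed neural markers stood at 29.2 to 41.1 CPM in hypoxia and 20.1 to 37.2 CPM in control. These levels do not show whether the libraries held more than 1 cell type. If they did, fewer cells of a type and less RNA per cell cannot be told apart.

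The Mest and Gnas loci differed widely in level from each other and from the low Igf2 and H19 loci. None of the 9 arms passed the test between hypoxia and control. The scaling used the trimmed mean of M values (TMM) and no length, since the arms are 21 to 23 bases long. The miR-335 arms held from 93.1% to 95.7% of the counts of the 9 arms in each library. Mean levels over all 6 libraries ran from 2648 CPM for miR-335-5p (place 36 of the 619) to 1.49 CPM for miR-483-5p (place 532). Adjusted over all 619 miRNAs by the Benjamini-Hochberg method at 0.05, edgeR's quasi-likelihood test called 0 of the 9, against 0 of 619 in all (0%). At an unadjusted p under 0.05 it was 0 of 9, against 42 of 619 (6.79%), and DESeq2 and limma-voom also called 0 of the 9.

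**Figure D1:**
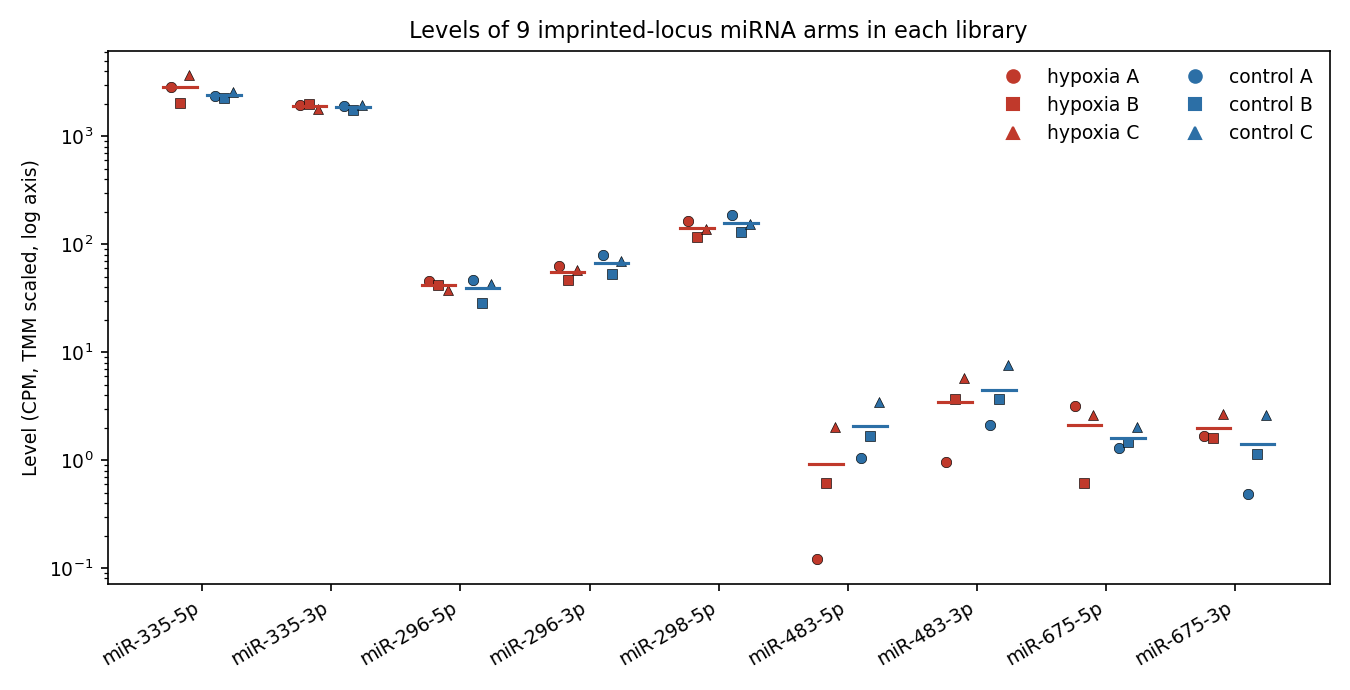
Level of each of the 9 arms in each library, in CPM scaled by TMM on a log axis, with hypoxia in red left of control in blue, a symbol for each library letter and a line at the group mean. The Mest arms lie between 1761 and 3712 CPM, the Gnas arms between 28.6 and 186 CPM and the Igf2 and H19 arms below 8 CPM, and in every arm the groups overlap.

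miR-335-5p, a repressor of genes of cell migration in human cancer cells, was the highest of the 9, and its hypoxia libraries spread more widely than its controls. It stood at 2899, 2048 and 3712 CPM in hypoxia libraries A, B and C, against 2354, 2267 and 2607 CPM in control libraries A, B and C. The highest and the lowest of the 6 values were both in hypoxia, and the groups overlapped. The means were 2886 ± 832 CPM in hypoxia and 2409 ± 176 CPM in control (SD, n = 3 each). The log2 fold change was 0.26 (SE 0.22, 95% interval -0.24 to 0.76, edgeR adjusted p = 0.923). It was 0.01 without hypoxia library C and 0.43 without hypoxia library B. Its partner arm miR-335-3p was nearly level, at 1940, 1985 and 1784 CPM in hypoxia libraries A, B and C, against 1896, 1761 and 1976 CPM in controls A, B and C. The largest of these 6 values was 1.13 times the smallest, against 1.81 times for miR-335-5p. The log2 fold change of miR-335-3p was 0.02 (SE 0.14, 95% interval -0.31 to 0.35, edgeR adjusted p = 0.986), and its sign changed when control B or hypoxia B was left out (-0.05 and -0.04).

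As the miR-335 arms come from 1 precursor, their ratio needs no scaling between libraries. The 5p arm took 59.9%, 50.8% and 67.5% of the miR-335 counts in hypoxia libraries A, B and C, against 55.4%, 56.3% and 56.9% in controls A, B and C. The controls lay within 2 percentage points of each other, and the hypoxia libraries lay on both sides of them. In both groups libraries differed beyond counting error. The exact Clopper-Pearson 95% intervals ran up to 51.2% in hypoxia B and from 67.2% in hypoxia C, and up to 55.8% in control A and from 56.5% in control C. The group means did not differ beyond that spread, with a log2 ratio of 5p to 3p of 0.56 ± 0.51 in hypoxia and 0.36 ± 0.04 in control (SD, n = 3 each, exact permutation test, two-sided, p = 0.7, where 0.1 is the smallest possible). Without hypoxia C the difference was -0.05. Among the 96 hairpins with both arms at a mean of at least 10 CPM, all 96 had a control SD of this ratio at least that of miR-335 (the median was 0.24). In hypoxia, 3 of the 96, miR-335 included, had an SD at least as large as its 0.51 (median 0.21). The 96 were not matched for level, and counting error adds less to this SD at the high counts of miR-335. This ranking by spread was not among the planned comparisons, and each SD rests on 3 libraries. Whether hypoxia changed the spread was not tested.

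The class of miRNAs poor in G and C moved with miR-335-5p in part, while miR-335-3p had another order. Relative to its mean over the 6 libraries, miR-335-5p lay at 0.16, -0.34 and 0.52 on the log2 scale in hypoxia libraries A, B and C, and at -0.14, -0.20 and 0.01 in controls A, B and C. The median of 59 miRNAs with under 40% G and C and at least 10 CPM lay at 0.10, -0.05 and 0.08 in the hypoxia libraries, and at -0.09, -0.10 and -0.04 in the controls. Hypoxia A and C were thus the high libraries in both, with smaller values for the class of 59. That class includes both miR-335 arms. A further 64 miRNAs of at least 10 CPM were unclassed, lacking a matched sequence or missing from some library. The part of base composition in the result was not tested.

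The miR-296 arms and miR-298-5p, from the Gnas locus, were at intermediate levels. miR-296-5p, known as a promoter of blood vessel growth in human endothelial cells, stood at 46.0, 42.1 and 38.0 CPM in hypoxia libraries A, B and C, against 46.6, 28.6 and 43.0 CPM in controls A, B and C. The groups overlapped, with control B the lowest of the 6. The log2 fold change was 0.09 (SE 0.23, 95% interval -0.44 to 0.63, edgeR adjusted p = 0.986), and it was -0.11 without control B. For miR-296-3p the levels were 63.2, 46.4 and 58.3 CPM in hypoxia A, B and C, against 78.9, 53.0 and 70.3 CPM in controls A, B and C. Each hypoxia library lay below the control of its own letter, while the groups overlapped. Its means were 55.9 ± 8.64 CPM in hypoxia and 67.4 ± 13.2 CPM in control (SD, n = 3 each). The log2 fold change was -0.27 (SE 0.23, 95% interval -0.79 to 0.25, edgeR adjusted p = 0.923), and it ran from -0.17 without control A to -0.44 without control B.

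miR-298-5p, which represses the protease gene Bace1 in mouse cells, was the most abundant arm of the Gnas locus. It stood at 166, 118 and 139 CPM in hypoxia libraries A, B and C, against 186, 131 and 154 CPM in controls A, B and C. Library B was the lowest and library A the highest in both groups, and the groups overlapped. The differences within the letters were alike, at -0.17 for A, -0.14 for B and -0.15 for C on the log2 scale. The log2 fold change was -0.16 (SE 0.22, 95% interval -0.66 to 0.35, edgeR adjusted p = 0.986), and it ran from -0.04 without control A to -0.29 without control B. The other arm of its hairpin, miR-298-3p, is not among the 9 and had from 0 to 5 counts per library, so the 5p arm held at least 99.7% of the hairpin's counts everywhere.

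The ratio between the neighbouring hairpins of the Gnas locus lay between 1.34 and 1.60 in all libraries. How steady such a ratio is between miRNAs of different loci was not tested. Counts of miR-298-5p were 1.52, 1.34 and 1.44 times those of both miR-296 arms together in hypoxia libraries A, B and C, against 1.48, 1.60 and 1.36 times in controls A, B and C. The log2 of this ratio was 0.52 ± 0.09 in hypoxia and 0.56 ± 0.12 in control (SD, n = 3 each, exact permutation test, two-sided, p = 0.7, smallest possible 0.1). Summed over its 3 arms, the locus stood at 275, 207 and 235 CPM in hypoxia A, B and C, against 312, 212 and 267 CPM in controls A, B and C. The log2 difference of the sums was -0.13 (exact permutation test, two-sided, p = 0.6, and 0.6 adjusted over the 4 loci, n = 3 each), and it was -0.0051 without control A and -0.28 without control B.

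Within miR-296 the balance of the arms was shifted towards 5p in every hypoxia library. The 5p arm held 42.1%, 47.6% and 39.4% of miR-296 counts in hypoxia libraries A, B and C, against 37.1%, 35.0% and 37.9% in controls A, B and C. The groups did not overlap, although the 95% intervals of hypoxia C (36.8% to 42.1%) and control C (35.7% to 40.2%) did. The log2 ratio of 5p to 3p was -0.40 ± 0.24 in hypoxia and -0.79 ± 0.09 in control, a difference of 0.38 (SD, n = 3 each, exact permutation test, two-sided, p = 0.1, the smallest possible, and 0.25 adjusted over the 5 hairpins). It ran from 0.25 to 0.49 when single libraries were left out, with the lowest value without hypoxia B. Such a separation was frequent. Of the 189 hairpins with both arms tested, 35 had groups that did not overlap in this ratio (18.5%), 16 of them higher (8.47%) and 19 lower in hypoxia (10.1%).

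**Figure D2:**
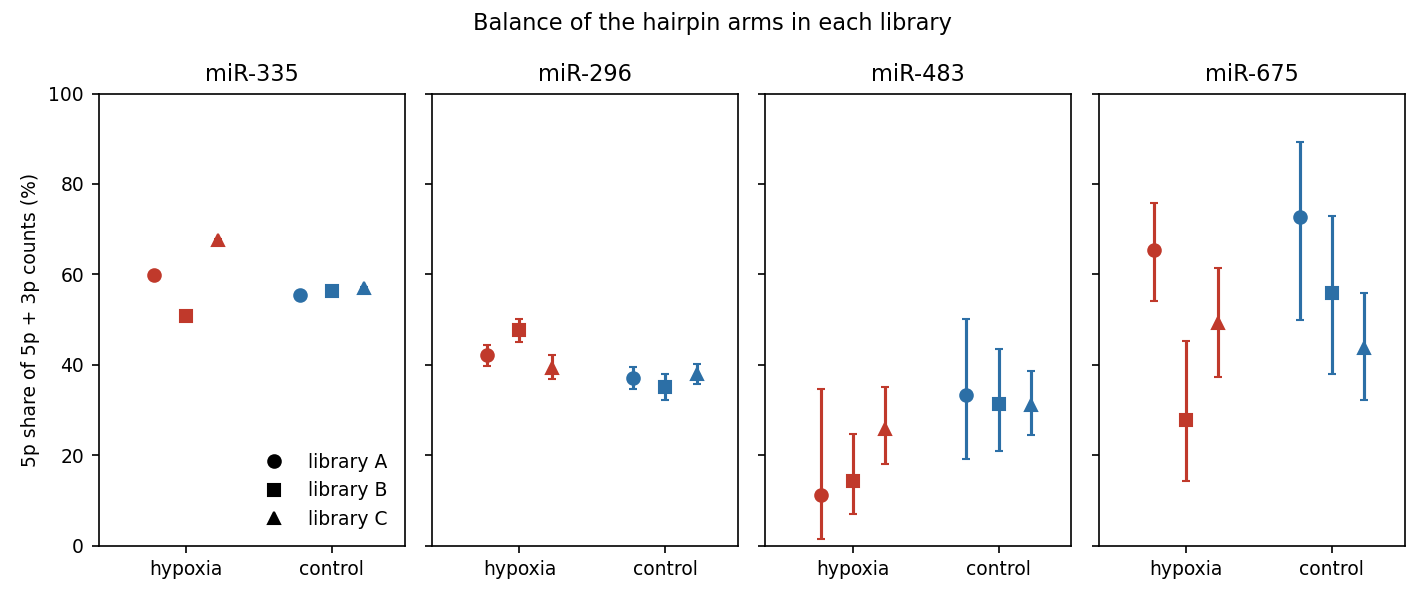
Share of the 5p arm in the counts of miR-335, miR-296, miR-483 and miR-675, in percent with exact Clopper-Pearson 95% intervals. The hypoxia libraries are left of the controls, with a symbol for each library letter, and miR-298 is not shown. The miR-335 shares spread from 50.8% to 67.5% in hypoxia and the controls lie together, while the miR-296 shares lie higher and the miR-483 shares lower in all 3 hypoxia libraries.

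The arms of miR-483, from an Igf2 intron, were rare. miR-483-3p, a repressor of a pro-apoptotic gene in human tumour cells, had 16, 60 and 80 counts in hypoxia libraries A, B and C, against 26, 48 and 119 counts in controls A, B and C. In CPM these were 0.962, 3.68 and 5.81 in hypoxia, against 2.10, 3.69 and 7.58 in control. Library A was the lowest and library C the highest in both groups. Its log2 fold change was -0.37 (SE 0.64, 95% interval -1.84 to 1.09, edgeR adjusted p = 0.986), and it was 0.25 without control C, 0.07 without hypoxia A and -0.96 without hypoxia C.

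The partner arm miR-483-5p had the largest log2 difference of the 9, at the lowest mean level. It had 2, 10 and 28 counts in hypoxia libraries A, B and C, against 13, 22 and 54 counts in controls A, B and C. In CPM these were 0.120, 0.613 and 2.03 in hypoxia, against 1.05, 1.69 and 3.44 in control, and each hypoxia library lay below the control of its letter. The exact Poisson 95% interval of the 2 counts in hypoxia A ran from 0.242 to 7.22 counts. The means were 0.922 ± 0.992 CPM in hypoxia and 2.06 ± 1.23 CPM in control (SD, n = 3 each). The log2 fold change was -1.21 (SE 0.80, 95% interval -3.04 to 0.62, edgeR adjusted p = 0.877), and it was -0.61 without control C, -0.68 without hypoxia A and -2.50 without hypoxia C.

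The 5p arm held 11.1%, 14.3% and 25.9% of miR-483 counts in hypoxia libraries A, B and C, against 33.3%, 31.4% and 31.2% in controls A, B and C. The groups did not overlap. The 95% intervals were wide in pair A, at 1.38% to 34.7% in hypoxia A and 19.1% to 50.2% in control A. The interval of each hypoxia library overlapped that of every control, and that of hypoxia C did so widely. The narrowest overlap was between hypoxia B (7.07% to 24.7%) and control C (24.4% to 38.7%). The log2 ratio of 5p to 3p was -2.25 ± 0.66 in hypoxia and -1.07 ± 0.09 in control, a difference of -1.18 (SD, n = 3 each, exact permutation test, two-sided, p = 0.1, the smallest possible, and 0.25 adjusted over the 5 hairpins). With miR-296 this made 2 of the 4 hairpins with both arms tested whose groups did not overlap, 1 in each direction, to be read against the 18.5% of all 189. The summed miR-483 level differed by -0.79 on the log2 scale (exact permutation test, two-sided, p = 0.5, n = 3 each), by 0.02 without hypoxia A and by -1.41 without hypoxia C.

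miR-675 is cut from H19 and in the mouse placenta it restrains growth by targeting the Igf1 receptor. The 5p arm had 53, 10 and 36 counts in hypoxia libraries A, B and C, against 16, 19 and 32 counts in controls A, B and C. Levels were 3.19, 0.613 and 2.61 CPM in hypoxia, against 1.30, 1.46 and 2.04 CPM in control. The lowest and the highest library were both in hypoxia. Its log2 fold change was 0.41 (SE 0.56, 95% interval -0.87 to 1.68, edgeR adjusted p = 0.986), and it was -0.02 without hypoxia A. miR-675-3p had 28, 26 and 37 counts in hypoxia A, B and C, against 6, 15 and 41 counts in controls A, B and C. These were 1.68, 1.59 and 2.68 CPM in hypoxia, against 0.486, 1.15 and 2.61 CPM in control, so that each hypoxia library lay above the control of its letter, in C by 0.04 on the log2 scale. Its log2 fold change was 0.45 (SE 0.56, 95% interval -0.82 to 1.73, edgeR adjusted p = 0.986), and it was 0.04 without control A and 1.25 without control C.

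The balance of the miR-675 arms varied between libraries, at low counts. The 5p arm held 65.4%, 27.8% and 49.3% of their counts in hypoxia libraries A, B and C, against 72.7%, 55.9% and 43.8% in controls A, B and C. The groups overlapped, and the log2 ratio differed by -0.60 (exact permutation test, two-sided, p = 0.5, 0.7 adjusted over the 5 hairpins, n = 3 each). It ran from -1.13 without hypoxia A to -0.0060 without hypoxia B. Summed, the miR-675 arms stood at 4.87, 2.21 and 5.30 CPM in hypoxia A, B and C, against 1.78, 2.61 and 4.65 CPM in controls A, B and C (log2 difference 0.47, exact permutation test, two-sided, p = 0.5). The difference of the sums ran from 0.14 without control A to 0.87 without hypoxia B.

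H19 and Igf2 are read from opposite parental copies under a shared control region, so the ratio of their miRNAs was taken as well, a comparison chosen after the data were seen. miR-675 counts were 4.50, 0.514 and 0.676 times the miR-483 counts in hypoxia libraries A, B and C, against 0.564, 0.486 and 0.422 times in controls A, B and C. Only in hypoxia A did miR-675 exceed miR-483, with 81 against 18 counts. The groups overlapped, as hypoxia B lay below control A. The log2 ratio was 0.22 ± 1.70 in hypoxia and -1.04 ± 0.21 in control (SD, n = 3 each, exact permutation test, two-sided, p = 0.2, smallest possible 0.1).

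Set side by side, the 9 arms showed no common direction. Between hypoxia and control 5 of the 9 log2 fold changes lay above 0, with a median of 0.02, against 317 of all 619 (51.2%) with a median of 0.01. In none of the 9 were the groups free of overlap, against 80 of 619 (12.9%). Without regard to the library letters, the 95% intervals of the 5 Mest and Gnas arms all lay between -0.79 and 0.76. Those of the 4 Igf2 and H19 arms were wider and reached from -3.04 to 1.73. Changes within those bounds are not shown to be absent.

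**Figure D3:**
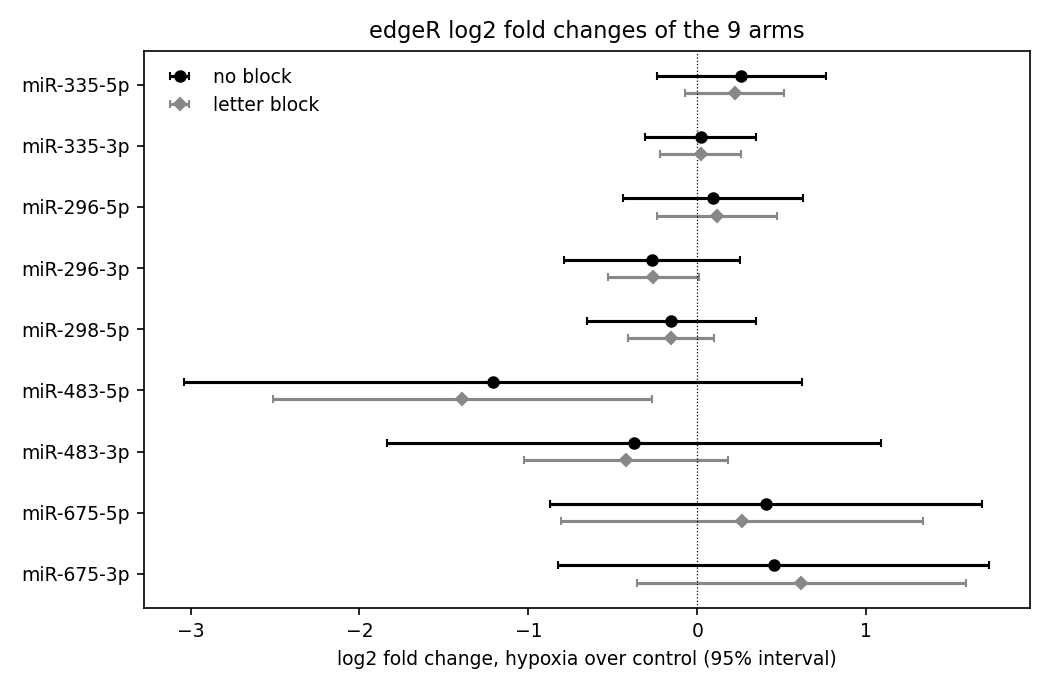
Log2 fold change of hypoxia over control for each arm with its 95% interval, from edgeR without a block (black circles) and with the library letter as a block (grey diamonds). Without the block all 9 intervals include 0, and with it that of miR-483-5p, from -2.51 to -0.27, does not, although its adjusted p was 0.156.

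Same-lettered libraries deviated together, so the comparison was also made with the letter as a block. That fit called 0 of the 9 arms, against 14 of 619 (2.26%). At an unadjusted p under 0.05 it gave 1 of 9, miR-483-5p (log2 fold change -1.39, SE 0.50), against 132 of 619 (21.3%). miR-296-3p came next, at -0.26 (SE 0.12, edgeR adjusted p = 0.249). Lower in hypoxia in all 3 pairs were 4 of the 9 arms, miR-296-3p, miR-298-5p and both miR-483 arms, against 121 of 619 (19.5%), and higher in all 3 was 1, miR-675-3p, against 124 of 619 (20.0%). The 4 arms come from 2 loci and are not independent, and in pair B miR-483-3p was level, at 0.00 on the log2 scale.

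**Figure D4:**
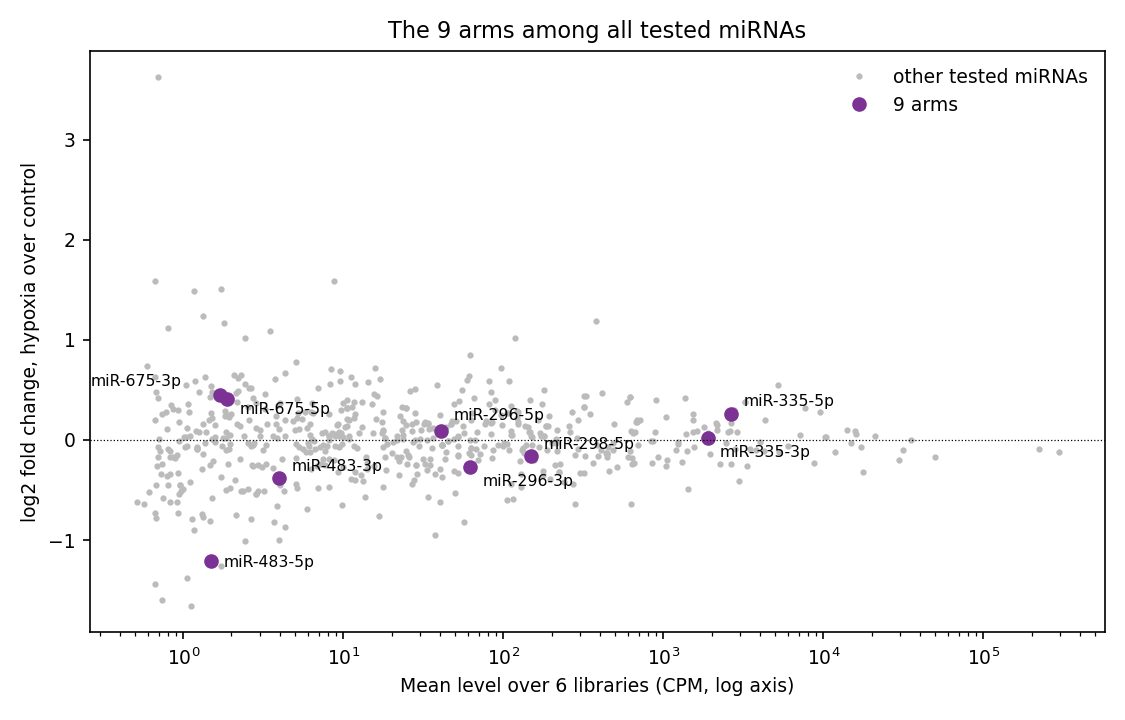
Log2 fold change of hypoxia over control against the mean level in CPM on a log axis for all 619 tested miRNAs (grey) and the 9 arms (purple). The arms of the Mest and Gnas loci lie near 0 at higher levels, and miR-483-5p, at 1.49 CPM and -1.21, lies where the other miRNAs also spread widely.

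The spread among replicates set the limit for the rare arms. The mean of the coefficients of variation within the groups was 83.8% for miR-483-5p, 66.4% for miR-483-3p, 53.6% for miR-675-3p and 43.8% for miR-675-5p. The median of the 257 tested miRNAs under 10 CPM was 31.9%, so these 4 varied more than most of that class. The class was not matched to their level, as their means were 1.49 to 3.97 CPM and counting error grows at low counts. The Gnas arms, at 16.9% to 17.5%, were close to the median of 17.5% of the 297 miRNAs from 10 to 1000 CPM. miR-335-3p had 5.67% and miR-335-5p 18.1%, against a median of 14.1% for the 65 miRNAs at 1000 CPM and above.

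The miRNAs most like each of the 5 arms of at least 10 CPM were found by the root-mean-square difference, over the 6 libraries, of log2 CPM centred on its mean. For miR-335-5p these were miR-542-3p at 0.0882, miR-106b-5p at 0.118 and miR-15b-5p at 0.142, where the median of the 360 others was 0.380. For miR-335-3p they were miR-181a-5p at 0.0563, miR-106b-3p at 0.0789 and miR-25-3p at 0.0831 (median 0.265). The nearest to miR-296-3p was miR-298-5p from the same locus, at 0.0843, followed by miR-130b-5p at 0.107 and miR-574-5p at 0.141 (median 0.375). miR-298-5p in turn had miR-574-5p nearest, at 0.0663, then miR-296-3p at 0.0843 and miR-181d-5p at 0.101 (median 0.343 of 361). miR-296-5p was nearest to miR-532-3p at 0.134, miR-181b-5p at 0.140 and miR-152-3p at 0.150 (median 0.370). Arms of the same hairpin were left out of this search.

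Arms of other imprinted clusters also lay on both sides of 0. In the Dlk1-Dio3 cluster 84 of 107 arms were tested, 46 lay above 0 and 38 below, with a median of 0.02. In the Sfmbt2 cluster 57 of 80 were tested, 27 above 0 and 30 below, with a median of -0.01. edgeR called 0 of either without the block. With it, 4 of the 84 Dlk1-Dio3 arms (1 higher and 3 lower in hypoxia) and 0 of the 57 Sfmbt2 arms were called, against 0 of the 9 described here and 2.26% of all. Some tested arms had the same mean level and log2 fold change under different names, such as miR-467a-5p and miR-467b-5p (222 CPM and -0.32 each). Shared reads were checked for the 9 arms only, so the arms counted in the other clusters may not all be separate. The differences between these clusters and the 9 arms were not tested.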

How the data were processed

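The values are raw read counts per mature miRNA, which the authors deposited as whole numbers with 1 column per library. bcl2fastq 2.0, DESeq2 and mm10 are named, with no role, per the submitters' processing notes. The aligner, the counter, the annotation release and the treatment of reads matching several miRNAs are not stated in those sources. The second table, of predicted miRNAs, was not used.

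The tests ran in edgeR 4.0.16 under R 4.3.3 (filterByExpr, TMM scaling, quasi-likelihood test, Benjamini-Hochberg adjustment at 0.05 over all 619 tested miRNAs), with DESeq2 1.42.0 and limma 3.58.1 as alternatives. SE is the absolute log2 fold change over the square root of F. Arm ratios had 0.5 added to each count. For single values an exact permutation test was used, two-sided, and for same-lettered pairs an exact sign-flip test, two-sided. The script was tested on simulated data. The smallest chi-square per degree of freedom over the 15 pairs of libraries was 134, far above counting noise, and no libraries were merged.

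The letters match no label. Same-lettered libraries were checked for pairing by correlating, over the tested miRNAs, their deviations from the group means. The correlations were 0.524 (A), 0.431 (B) and 0.283 (C), all over the limit of 0.1, and unlike letters gave -0.44 to 0.121. Deviations within a group sum to 0, so positive covariances for same letters force negative ones, on average, for unlike letters. The contrast between them is therefore partly built in. The pairing rests on column names and values, not on labels.

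All 9 members are named, with the 3 nearest miRNAs of another hairpin for each member of at least 10 CPM. The members and lists were chosen with earlier results of these data known. Alternatives were other scalings, no filter, other tools, the letter block and leaving out libraries.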

Additional observations from a re-analysis of the deposited data

How the results depend on the processing

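The count of members called was 0 under all 16 alternatives, with adjusted p from 0.151 to 1.00, and the direction was kept in 135 of 144 values. Over all known miRNAs the count called was 1 with DESeq2, 4 without the filter, 14 with the replicate block and 23 with the replicate block without pair B, against 0. The replicate block gave 0.22 for miR-335-5p and changed no call among the 9 arms. Signs changed only among values that had not passed. With single libraries left out, log2 values ran from -0.047 to 0.050 for miR-335-3p, from -0.11 to 0.21 for miR-296-5p, from -0.96 to 0.25 for miR-483-3p and from -0.017 to 0.82 for miR-675-5p. With the block they were -0.085 (miR-335-3p) and -0.13 (miR-296-5p) without pair B and -0.28 (miR-675-5p) without pair A. Differences in log2 arm ratio ran from -0.046 to 0.46 for miR-335 and from -0.36 to 1.36 for miR-298, which rests on 0 to 5 counts of its 3p arm, and the summed miR-483 difference from -1.41 to 0.021. The causes were not tested. Leaving out a library leaves 2 in a group, and permutation tests then cannot go below 0.2. Counts of at most 119 per library limit the Igf2 and H19 arms.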
